A study of Arabidopsis thaliana with 12 samples.

Results

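The 95 nuclear genes described here were reduced in nrpd1 seedlings and not in nrpe1 seedlings. They were chosen from the values themselves. A gene was taken where its WT mean was at least 1 RPKM (the read count scaled to gene length and library size), its nrpd1 mean was at most 40% of the WT mean, each nrpd1 library was below each WT library and its nrpe1 mean was at least 70% of the WT mean. The rule set aside 11 well-known root hair genes by name, of which 10 also met these values. Of 33323 genes on chromosomes 1 to 5, 18841 had a WT mean of at least 1 RPKM, and 95 met the rule. With nrpd1 and nrpe1 exchanged the same thresholds took 6 genes, and 17 genes were low in both mutants.

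The libraries were mRNA-seq of 2-week-old Arabidopsis thaliana Col seedlings, grown without any treatment, from WT and from 3 single mutants with the alleles pkl-1, nrpe1-11 and nrpd1-3, with 3 biological replicates each. Whole seedlings were used, so roots and shoots were measured together. Each mutant was represented by a single allele. The read totals recovered from the table ran from 15240619 to 21473012 in 11 libraries, and nrpe1 replicate 2 held 7203482. In nrpe1 the NRPE1 transcript averaged 0.64 ± 0.24 RPKM against 1.83 ± 0.45 in WT (SD over 3 libraries), with an adjusted p of 0.117 in limma and 0.00765 in limma with the replicate number as a block. NRPD1 was 1.42 ± 0.17 in WT and 1.03 ± 0.23 in nrpd1, and PKL was 18.3 ± 3.6 in WT and 22.7 ± 3.5 in pkl. The levels of NRPD1 and PKL therefore did not check those labels.

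NRPD1 and NRPE1 are the largest subunits of the plant-specific RNA polymerases Pol IV and Pol V. In RNA-directed DNA methylation (RdDM), Pol IV makes the precursors of small interfering RNAs, and Pol V makes the scaffold transcripts to which these RNAs guide the methylation machinery. PKL is a CHD3-type chromatin remodeler. A root hair is the tubular outgrowth of a single epidermal cell, built by tip growth, in which vesicles deliver wall material and wall-loosening enzymes to the tip along actin. Hydroxyproline-rich extensins, peroxidases that crosslink the wall, and xyloglucan-modifying enzymes are typical products of this cell. The basic helix-loop-helix (bHLH) factor RHD6 starts the hair program, and RSL4 drives the elongation. RSL4 and related factors bind the root hair element, a short promoter sequence with a CACG core.

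Promoter sequences were searched first, because many of the genes are named for root hairs. The window ran from 250 bases before to 50 bases from the start of each gene as annotated by RefSeq on TAIR10.1, and both strands were read. The root hair element was present in 11 of the 95 windows (11.6%), compared with 265 of 32834 windows (0.807%) over all genes and 158 of 18822 (0.839%) over the genes with a WT mean of at least 1 RPKM. The 11 elements are shown to let the cores be compared, each read 5′ to 3′ on the strand that carries it, with the TG and the CACG core in capitals. A match is a description of letters and was not tested as a binding site.
RHS13: ataaTGcgactCACGtc
AT3G09925: taaaTGgaccgCACGta
RHS18: tccaTGaacgCACGtt
PCK2: ttcaTGtcttCACGtt
PPa3: tcttTGcctgCACGtt
RHS15: tttgTGcccgCACGta
AT2G47530: taatTGggtgCACGtt
MES15: ttctTGagactCACGaa
PERK13: ttatTGgaggCACGtc
RHS16: taagTGctgctCACGac
AT3G48940: ttatTGttgtgCACGat

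The elements lay at different distances from the start of the gene. In RHS13, which encodes a proline-rich protein of the Ole e 1 type, the element began 210 bases before the start. It began 91 bases before the start of AT3G09925, another Ole e 1 protein, and 92 bases before that of RHS18, a peroxidase. In PERK13, a receptor kinase that restrains root hair growth, and in RHS16, another receptor-like kinase, it began 12 and 11 bases before the start. None of the 10 extensins and none of the 10 cell wall enzymes had the element in this window. Here the 250 bases before the start are shown for the 3 genes of the 11 with the highest WT level, with the element in capitals. The RHS13 run is chr4:993040-993289, minus strand, that of AT3G09925 is chr3:3052851-3053100, minus strand, and that of RHS18 is chr5:7426060-7426309, plus strand.
RHS13: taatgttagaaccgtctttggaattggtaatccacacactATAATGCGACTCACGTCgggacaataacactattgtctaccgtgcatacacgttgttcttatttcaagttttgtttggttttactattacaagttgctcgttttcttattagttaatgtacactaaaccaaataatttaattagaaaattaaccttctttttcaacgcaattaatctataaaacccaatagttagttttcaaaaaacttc
AT3G09925: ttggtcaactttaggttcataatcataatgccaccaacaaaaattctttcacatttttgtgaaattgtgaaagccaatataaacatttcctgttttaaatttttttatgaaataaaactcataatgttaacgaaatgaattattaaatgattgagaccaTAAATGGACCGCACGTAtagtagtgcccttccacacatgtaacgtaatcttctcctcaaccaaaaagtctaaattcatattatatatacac
RHS18: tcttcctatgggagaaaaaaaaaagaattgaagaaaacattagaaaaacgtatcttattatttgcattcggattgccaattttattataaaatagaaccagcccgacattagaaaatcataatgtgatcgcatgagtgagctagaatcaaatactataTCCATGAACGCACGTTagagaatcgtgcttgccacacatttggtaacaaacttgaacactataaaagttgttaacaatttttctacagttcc

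Other motifs were counted in the same windows. The G-box CACGTG reads the same on both strands. It was in 4 of the 95 windows (4.21%), against 8.77% of windows of genes with a WT mean of at least 1 RPKM. TATAAA was in 64 of 95 (67.4%), against 51.5% of those windows.

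The genes lay on all 5 chromosomes, with 18, 12, 12, 20 and 33 on chromosomes 1 to 5, and 91 were protein-coding. In 6 cases a pair of them lay within 10000 bases. These were AT3G54580 and HRGP1, XTH12 and XTH13, AT5G06630 and EXT10, AT2G47530 and AT2G47540, AT4G25790 and XTH14, and AT2G28426 and AT2G28440. The first pair are both extensins, and XTH12 and XTH13 are both xyloglucan endotransglucosylases.

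In nrpd1 the 95 genes stood at a median of 14.99% of their WT mean, from 0.58% to 38.8%, as the rule required. The quartiles were 11.1% and 22.0%, 20 genes were below 10% and 76 below 25%. In nrpe1 the median was 102% (72.1% to 251%). The pkl libraries took no part in the choice, and there the median was 126% of WT (24.1% to 260%). In 89 of the 95 genes each nrpd1 library was below all 9 other libraries, as in 0.812% of the genes with a WT mean of at least 1 RPKM, a count that the rule largely fixes. In bulk seedlings, fewer cells of a type and less RNA per cell cannot be told apart.

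**Figure D1:**
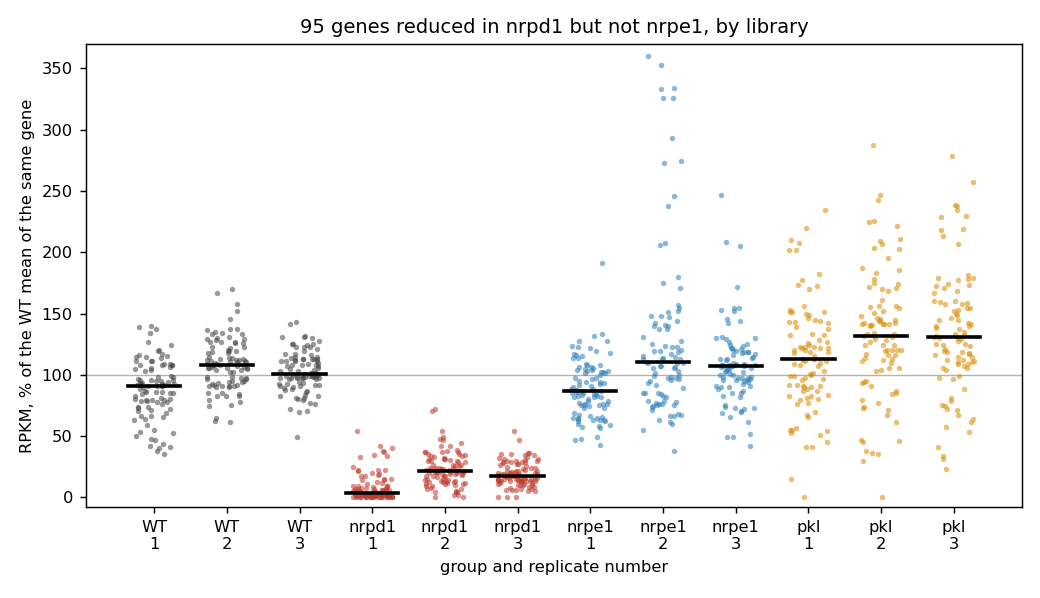
RPKM of each of the 95 genes as a percentage of its own WT mean (vertical axis) in the 12 libraries (horizontal axis). Points are genes and black bars are medians, which were 3.9%, 21.8% and 17.5% in nrpd1 replicates 1, 2 and 3 and between 86.6% and 132% in the other 9 libraries.

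The nrpd1 libraries were unequal. The median over the genes was 3.9% of the WT mean in nrpd1 replicate 1, 21.8% in replicate 2 and 17.5% in replicate 3. Replicate 1 was the lowest nrpd1 library for 76 genes and below 0.5 times the mean of the other two for 74. Set against the WT library of the same number, the medians were 5.5%, 20.4% and 16.0%, and all 95 genes were below WT in each of the 3 comparisons, as the rule fixes. Leaving out nrpd1 replicate 1 took 113 genes under the same rule, 89 of them among the 95. The summed level of the 95 genes was 504 to 730 RPKM in the WT libraries, 35.2 to 137 in nrpd1, 515 to 898 in nrpe1 and 667 to 875 in pkl. The nrpd1 sums lay below those of WT, as the rule fixes, and below those of nrpe1, as it largely fixes. They did not overlap those of pkl either, and in that comparison the rule fixed the low nrpd1 side.

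A small number of the genes did not follow the low level of nrpd1 replicate 1. In 11 of the 95 it was above the mean of the other nrpd1 libraries. GSTU28, a glutathione S-transferase, was 3.04, 2.24 and 2.59 RPKM in WT and 0.40, 0.35 and 0.36 in nrpd1. NSP3, a nitrile specifier protein that acts in glucosinolate breakdown, was 3.13, 2.90 and 2.19 in WT and 0.49, 0.29 and 0.58 in nrpd1. SQP2, a squalene monooxygenase, was 0.79, 1.5 and 1.03 in WT and 0.28, 0.14 and 0.11 in nrpd1. In these 3 genes nrpd1 replicate 1 was not the lowest nrpd1 library. None of the 18 genes on the root hair lists was among them except CAP1 (AT5G61350), a receptor-like kinase, with 40.1%, 36.7% and 21.8% of the WT mean in nrpd1 replicates 1, 2 and 3, and in 17 of the 18 replicate 1 was below 0.5 times the mean of the others.

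**Figure D2:**
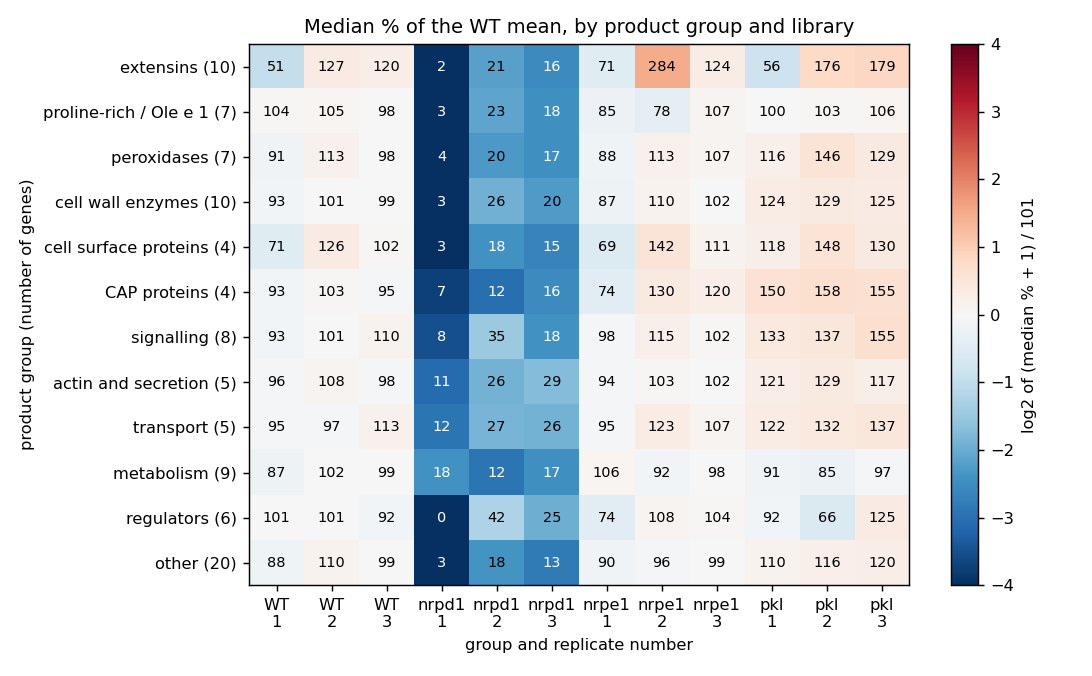
Median percentage of the WT mean for 12 product groups (rows, number of genes in brackets) in the 12 libraries (columns), with the colour on a log2 scale. All groups are low in the 3 nrpd1 libraries, and the extensins reach 284% in nrpe1 replicate 2.

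The 95 genes were sorted, largely by their RefSeq products, into 11 groups, which hold 75 genes, and 20 others. For some, such as RHS18 and RAP2.11, the RefSeq product name does not give the group. The extensins, structural glycoproteins of the cell wall, were the largest group together with the wall enzymes, with 10 genes each. AT3G54580, the most abundant extensin, was 15.5, 44.8 and 46.6 RPKM in WT, 0.70, 4.98 and 4.67 in nrpd1, 22.2, 105 and 41.8 in nrpe1 and 16.1, 60.1 and 63.9 in pkl. HRGP1 was 9.09, 27.2 and 28.1 in WT, 0.60, 3.17 and 3.44 in nrpd1, 14.0, 71.7 and 25.5 in nrpe1 and 8.81, 38.2 and 37.1 in pkl. In both genes the nrpd1 libraries lay below all others, and replicate 1 was the lowest library of each group.

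This replicate pattern ran through the 10 extensins. Replicate 1 was below the mean of replicates 2 and 3 in all 10 in each of the 4 groups, at a median of 0.41 times that mean in WT, 0.34 in nrpe1, 0.35 in pkl and 0.11 in nrpd1. For the other 85 genes the medians were 0.89, 0.85, 0.93 and 0.24. The extensins were also at 1.98 to 3.63 times the mean of the other nrpe1 libraries in nrpe1 replicate 2, the shallowest library, which was the highest of all 12 for 9 of the 10. Their nrpe1 means, 133% to 191% of WT, rested on that library, since the median was 97.9% (81.3% to 109%) without it. The part of depth in this was not tested. EXT6 was the lowest extensin in nrpd1 at 6.7% of WT and AT4G08400 the highest at 20.5%. EXT11, EXT12, EXT13, EXT10, AT5G06630 and AT4G08410 lay between them. EXT10 overlaps a gene on the other strand.

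The cell wall enzymes were low in nrpd1 to a like extent. XTH14, a xyloglucan endotransglucosylase that cuts and rejoins wall polymers, was 28.5, 36.8 and 33.5 RPKM in WT, 0.40, 5.82 and 4.72 in nrpd1, 27.9, 39.1 and 37.3 in nrpe1 and 39.7, 44.0 and 40.8 in pkl. Here the pkl libraries were all above the WT libraries. XTH12, XTH13 and XTH26 of the same family were at 18.6%, 21.2% and 11.5% of WT in nrpd1. AT5G04960, a pectin methylesterase inhibitor family protein, was at 13.1%. RHS12, a member of the pectin methylesterase family, was at 20.3%, and RHS14, a pectate lyase family protein, at 7.66%. GH9C1, a cellulase-type enzyme, was at 24.0%. GXM2, a glucuronoxylan methyltransferase, had the highest nrpd1 level of the 95, at 38.8% of WT. TBL21 was at 14.5%.

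All 7 peroxidases, enzymes that use hydrogen peroxide in the wall, were between 8.07% and 19.0% of WT in nrpd1. AT4G26010 (PER44) was 25.7, 33.0 and 28.4 RPKM in WT, 1.86, 6.91 and 5.59 in nrpd1, 24.1, 32.8 and 31.0 in nrpe1 and 33.6, 43.1 and 42.6 in pkl. RHS19 was 19.7, 24.6 and 21.1 in WT and 0.31, 2.76 and 2.21 in nrpd1. AT3G49960 (PER35) was 18.4, 22.8 and 22.9 in WT and 0.25, 3.72 and 3.71 in nrpd1. The nrpd1 libraries stayed far below the WT range in each. AT1G30870 (PER7) was at 19.0% and RHS18 at 14.2% of WT in nrpd1. AT1G34510 (PER8) was at 11.1%, and AT1G05240, of which 60.2% of the transcript had a near-identical copy in AT1G05250, was at 15.6% and is less certain.

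RHS13 had the highest WT level of the 95 genes. It was 26.4, 51.0 and 41.7 RPKM in WT, 0.36, 5.88 and 5.2 in nrpd1, 26.3, 29.9 and 42.7 in nrpe1 and 33.2, 41.0 and 44.0 in pkl. AT3G09925 was 20.8, 31.8 and 31.6 in WT and 1.36, 6.33 and 4.94 in nrpd1. MOP10 was 11.9, 15.2 and 16.2 in WT and 0.59, 3.24 and 2.90 in nrpd1. These secreted proline-rich or Ole e 1 proteins were all at 15.6% of WT or less. The others of this group, AT2G47540, AT2G47530, AT2G28440 and AT5G26080, ranged from 7.46% to 30.6%.

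Proteins at the cell surface showed the same order of values. AGP3, an arabinogalactan protein, was 18.9, 28.5 and 24.9 RPKM in WT, 0.65, 4.68 and 2.83 in nrpd1, 18.1, 33.96 and 28.5 in nrpe1 and 21.3, 29.1 and 26.7 in pkl. WT, nrpe1 and pkl overlapped for this gene, and nrpd1 lay apart. FLA6, a fasciclin-like arabinogalactan protein, was at 10.5% of WT, SHV2, a COBRA-like protein needed for root hair tip growth, at 13.5%, and the copper protein UCC3 at 14.6%. The 4 CAP family secreted proteins, AT5G57625, AT4G30320, AT4G25790 and AT4G33730, were at 9.09% to 13.4%. AT5G57625, the most abundant, was 16.2, 19.0 and 17.2 RPKM in WT and 0.44, 3.81 and 2.77 in nrpd1. AT5G14330, an uncharacterized protein with the third highest WT level, was 21.3, 46.4 and 33.4 in WT and 7.43, 9.69 and 11.6 in nrpd1, a smaller difference.

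Genes for growth machinery and signalling were weaker in expression. ADF8 and ADF11, which sever actin filaments, were at 21.9% and 16.3% of WT in nrpd1. ADF11 was 10.1, 12.4 and 10.8 RPKM in WT and 0.28, 2.89 and 2.25 in nrpd1, and it overlaps genes on the other strand. SYP123, a syntaxin of vesicle fusion in root hairs, was at 37.3%. The exocyst gene EXO70C2 was at 31.5%, and ROH1 at 19.8%. Of the kinases, PERK13 was 1.42, 1.85 and 1.98 RPKM in WT and 0.04, 0.52 and 0.58 in nrpd1. RHS16 was at 11.2%, CAP1 at 32.9% and CIPK13, a kinase regulated by calcium sensors, at 26.9%. AT2G41970 and AT3G07070, other protein kinases, were at 26.4% and 19.0%. AT1G73580, a calcium-dependent lipid-binding protein, was at 22.2%. AT3G07490, given here by its RefSeq symbol AGD11, was at 6.73%.

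Transporters and regulators completed the named groups. IRT2, an iron transporter of the root epidermis, was 2.17, 2.22 and 1.63 RPKM in WT, 0.12, 0.45 and 0.39 in nrpd1, 2.18, 2.76 and 3.06 in nrpe1 and 2.27, 2.64 and 2.63 in pkl. HA7, a plasma membrane proton pump, was 4.15, 4.05 and 4.94 in WT and 0.61, 1.17 and 1.14 in nrpd1. RHS2 (AT1G12950) was at 25.6% of WT, and RHS15 (G3Pp2), a glycerol-3-phosphate permease, at 10.4%. AT1G18420, a malate channel family protein, was at 26.2%. RAP2.11, an ERF family factor of the low-potassium response, was 3.27, 3.66 and 3.64 in WT and 0, 0.86 and 0.52 in nrpd1. The cyclins CYCP4;2 and CYCP4;3 were at 33.3% and 30.02%, the RING protein AT4G09100 at 9.48% and AT1G07500 at 36.2%. The MIR156d precursor was at 23.6%, with nrpd1 values of 0, 1.1 and 0 RPKM.

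Metabolic genes and genes of other or unknown product ranged from 0.58% to 37.3% of WT in nrpd1. CCP3, a serpin-type protease inhibitor, was 2.38, 3.59 and 3.02 RPKM in WT, 0.04, 0.38 and 0.46 in nrpd1, 1.77, 2.20 and 3.43 in nrpe1 and 5.19, 6.31 and 5.31 in pkl. AT5G63270, of the RIN4 family, was 7.09, 9.72 and 10.4 in WT and 0, 1.95 and 1.78 in nrpd1. Both had their pkl libraries above all WT libraries. AT2G34910, annotated as a root hair specific protein, was at 33.1% of WT in nrpd1, and the hydrolase gene AT4G17470 at 35.5%. MES15, a methyl esterase, was at 11.1%, the remorin gene AT3G48940 at 20.5% and AT5G54790, a phosphatase-like protein, at 28.1%. AT5G24313, AT5G06990 and AT5G36270 were at 13.2%, 22.8% and 17.8%.

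**Figure D3:**
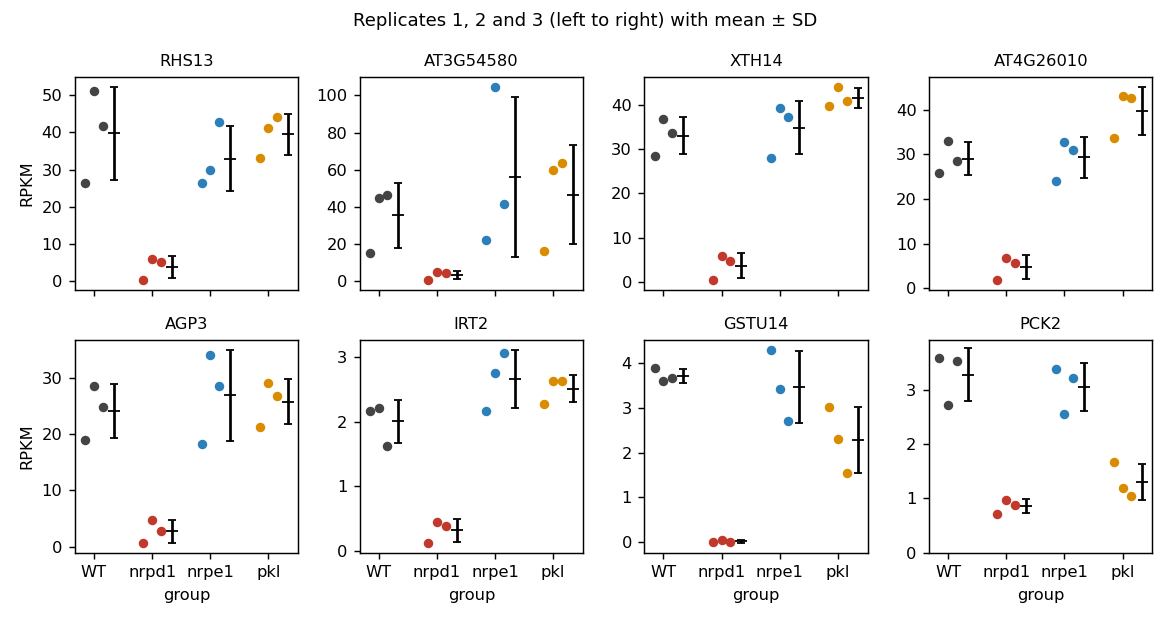
RPKM (vertical axes, each starting at or just below 0) of 8 of the genes in the 4 groups (horizontal axes). Coloured points are replicates 1, 2 and 3 from left to right, and black marks are the mean ± SD (n = 3). All nrpd1 points lie below all WT points, and PCK2 and GSTU14 are also lower in pkl than in WT.

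The 8 lowest nrpd1 levels relative to WT rested on 1 to 56 reads summed over the nrpd1 libraries. GSTU14, a glutathione S-transferase, was 3.87, 3.59 and 3.66 RPKM in WT, 0, 0.06 and 0 in nrpd1, 4.28, 3.41 and 2.69 in nrpe1 and 3.01, 2.29 and 1.54 in pkl. This was 1 read in the 3 nrpd1 libraries against 143 in WT, or 0.61% of WT at equal library size, with an exact (Clopper-Pearson) 95% interval of 0.015% to 3.45% that covers counting error only. AT1G30990, a polyketide cyclase family protein, had 1 read against 43 (2.03%, 0.05% to 11.9%), and AT1G52660 had 4 against 99 (3.52%, 0.94% to 9.3%). AT5G42510, a dirigent-like protein, had 9 against 169 (4.64%, 2.08% to 9.01%). PPa3, an inorganic pyrophosphatase, had 9 against 142 (5.52%, 2.47% to 10.8%), and AT5G40860 had 5 against 87 (5%, 1.59% to 12.1%). AT1G11655 had 3 against 40 (6.53%, 1.29% to 20.5%) and EXT6 had 56 against 693 (7.04%, 5.26% to 9.25%). The intervals of these 8 genes overlapped for neighbours in this order. In 13 of the 95 genes no nrpd1 library held more than 3 reads.

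Near the thresholds the values were continuous. Just inside the nrpd1 limit were SYP123 and SDH1-2, a succinate dehydrogenase subunit, both at 37.3% of WT, and GXM2 at 38.8%. Just outside it were MLO15 at 40.5%, AT5G42785 at 40.6% and NAS2, a nicotianamine synthase, at 41.4%. Just inside the nrpe1 limit were AT1G07500 at 72.1% and AT4G09100 and GXM2, both at 74.1%, and outside were AT5G19800 at 69.4%, EDA12 at 68.1% and AT4G22214 at 60.6%. At the limit on the WT mean, AT5G26080, AT3G01730 and AT5G54790 were just inside at 1.00, 1.02 and 1.02 RPKM, and AT3G12540, AT1G02570 and AT3G24615 just outside at 0.998, 0.994 and 0.993. At a WT mean of at least 2 RPKM, 58 of the 95 genes were left.

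Genes with known root hair roles were then counted, taken from lists chosen with earlier results of these data in view. Of 35 genes of root hair growth, 16 were among the 95 and 8 were among the genes set aside. On the whole list 19 of 35 were called lower in nrpd1 (limma adjusted p under 0.05 and a fold change of at least 2), where 0.591% of all features tested were, and with the replicate block 23 were (0.769%). None was called higher, which was the case for 0.38% of all features (0.427% with the block). Since 16 of the genes were chosen on this contrast, that count has no weight of its own. Of the 11 genes outside the choice, 2 fell. PER57, a peroxidase, was 43.5, 40.5 and 40.1 RPKM in WT and 18.4, 20.1 and 15.5 in nrpd1, a log2 fold change of -1.20 ± 0.14 (SE) with an adjusted p of 0.0013 in limma. RHS4 was 0.82, 0.65 and 0.80 in WT and 0.18, 0.19 and 0.08 in nrpd1 (-1.80 ± 0.26, adjusted p = 0.0062 in limma). The call of RHS4 was lost at a pseudocount of 1 (-0.61) and with the 6 libraries of WT and nrpd1 alone (adjusted p = 0.091 in limma). That of PER57 was kept in all 14 alternatives. RHS17 (-1.63, adjusted p = 0.067 in limma) and the oxidase gene RBOHC (-0.75, adjusted p = 0.11 in limma) did not pass, nor did RHS3 (-1.06, adjusted p = 0.37 in limma) and RHS8 (-1.24, adjusted p = 0.43 in limma). The other list genes RHD3, RHD4, CSLD3, SHV3 and PIP5K3 had log2 fold changes between -0.29 and 0.12. Of the 11 genes 6 were lower at an unadjusted p under 0.05 in limma. The share of all features at that p was not counted, so nothing is read from this number. The 11 genes had a median of -0.75, against 0.04 over all features tested.

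Among 16 regulators of root hairs, 2 (CAP1 and PERK13) were among the 95 and 3 were set aside. Of the 11 others 1 fell, IRE, an AGC kinase of hair elongation, which was 0.81, 0.57 and 0.97 RPKM in WT and 0.09, 0.16 and 0.16 in nrpd1 (log2 fold change -1.89 ± 0.26, adjusted p = 0.004 in limma). The call of IRE was lost at a pseudocount of 1 (-0.64) and with the 6 libraries of WT and nrpd1 alone (adjusted p = 0.077 in limma). On the whole list 4 of 16 were called lower (0.591% of all features tested) and with the replicate block 6 (0.769%). Of these, 3 and 5 were genes among the 95 or set aside, so these counts have no weight of their own either. The bHLH gene RHD6 was 2.06, 2.25 and 1.69 RPKM in WT and 1.20, 1.72 and 2.23 in nrpd1, which overlapped. Among the genes set aside, RSL4 was 1.93, 3.03 and 2.15 in WT and 0.24, 0.93 and 0.56 in nrpd1, and LRL3, a bHLH gene, was 4.85, 3.99 and 4.45 in WT and 0.37, 1.44 and 0.71 in nrpd1. The third, the bHLH gene RSL2, was 1.98, 2.09 and 3.10 in WT and 0.12, 0.91 and 0.75 in nrpd1, and passed with the replicate block (adjusted p = 0.02 in limma) but not without it (-2.09 ± 0.54, adjusted p = 0.17 in limma). The GTPase gene ROP2 and the receptor kinase gene FER had log2 fold changes of 0.00 and -0.03 in nrpd1.

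**Figure D4:**
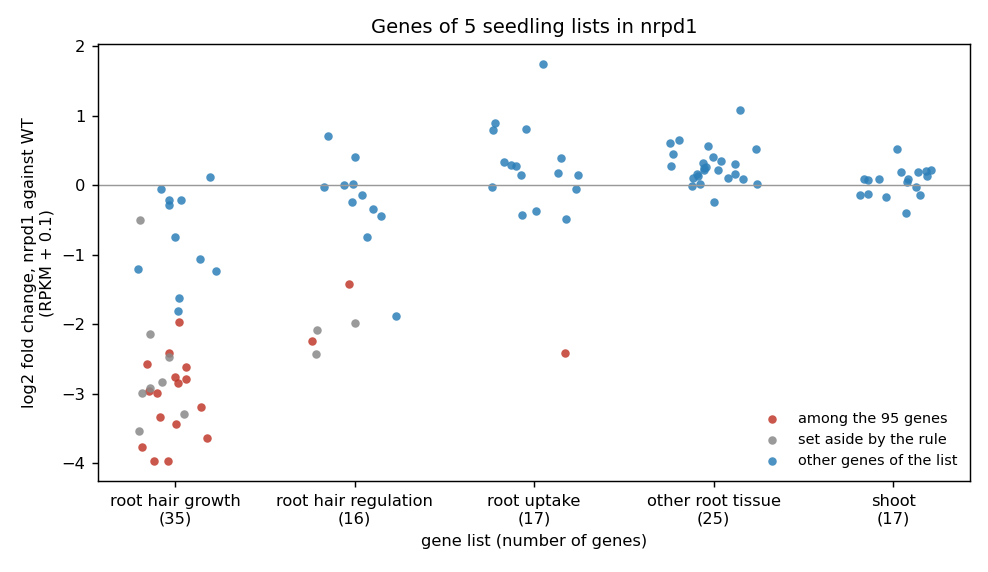
log2 fold change in nrpd1 against WT, on RPKM + 0.1 (vertical axis), of the genes of 5 lists (horizontal axis, number of genes in brackets). Red points are among the 95 genes, grey points were set aside by the rule and blue points are the other genes of each list, which have medians of -0.75, -0.15, 0.22, 0.25 and 0.08 from left to right.

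No marker of the rest of the root or of the shoot on these lists was called lower in nrpd1. Over all features tested 0.591% were, so 0 calls in lists of 25 and 17 genes are near that share. Of 25 genes of other root tissues, 0 were called lower by limma, and 0 at an unadjusted p under 0.05 or by voom, and their median log2 fold change was 0.25. GL2, which marks the hairless epidermal cells, was 2.59, 2.47 and 4.12 RPKM in WT and 3.33, 2.29 and 3.55 in nrpd1. CPC, which promotes hair cell fate, was 6.18, 6.52 and 5.64 in WT and 4.62, 5.91 and 4.94 in nrpd1, and the endodermal gene CASP1 was 20.2, 20.6 and 25.5 in WT and 21.5, 31.5 and 19.0 in nrpd1. WT and nrpd1 overlapped in GL2 and CASP1, and CPC was a little lower in nrpd1 within each replicate number (log2 fold change -0.25 ± 0.19, adjusted p = 1 in limma and 0.72 with the replicate block). The summed level of the 25 genes was 148 to 175 RPKM in WT and 175.3 to 190.1 in nrpd1. Of 17 shoot genes 0 were called lower, and 0 at an unadjusted p under 0.05 or by voom. Of 17 root uptake genes 1 was lower, IRT2, which is one of the 95. The neighbouring transporter gene IRT1 had a log2 fold change of -0.44 ± 0.92. In nrpe1, 0.0845% of all features were called lower and 0.351% higher (0.144% and 0.389% with the block). Of the genes of the 5 lists, 0 were called in either direction by limma, with or without the block, or by voom. At an unadjusted p under 0.05 in limma there was 1, in the regulation list. For the list counts at that p and by voom, the shares of all features were not counted, so nothing is read from them. The rule kept the nrpe1 mean of the list genes among the 95 at 70% of WT or more. For these a missing lower call was largely fixed in advance, and 10 of the 11 genes set aside met the same values.

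The comparison of pkl with WT was independent of the choice as far as the pkl libraries go, but it shares the WT libraries with it. Of the 95 genes 1 was called lower in pkl (0.913% of all features tested were) and 0 were called higher (0.984% were). At an unadjusted p under 0.05 limma had 5 lower and 7 higher, and voom on recovered reads called 1 lower and 0 higher. The shares of all features at that p and by voom were not counted, so nothing is read from these numbers. With the replicate block 2 were lower and 1 was higher, where 1.79% and 1.71% of all features were. PCK2, a phosphoenolpyruvate carboxykinase of gluconeogenesis, fell. It was 3.57, 2.71 and 3.53 RPKM in WT, 0.72, 0.98 and 0.88 in nrpd1, 3.38, 2.55 and 3.22 in nrpe1 and 1.67, 1.20 and 1.04 in pkl, with a log2 fold change in pkl of -1.28 ± 0.22 (SE) and an adjusted p of 0.011 in limma. The pkl values lay between those of nrpd1 and WT without overlap. This call was lost at a pseudocount of 1 (-0.90) and with the 6 libraries of WT and pkl alone (adjusted p = 0.067 in limma). It was also lost without WT replicate 1, pkl replicate 2 or pkl replicate 3. The block added the lectin gene AT5G38540 as lower (adjusted p = 0.043 in limma) and AGD11 as higher (adjusted p = 0.044 in limma).

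Most of the genes were a little above WT in pkl. The pkl mean was above the WT mean in 74 of 95 genes (77.9%), against 61.0% of genes with a WT mean of at least 1 RPKM, and the median ratio was 1.26 against 1.05. Within replicate numbers the medians were 129%, 122% and 123% of WT, and over the expressed genes 104%, 107% and 103%. All pkl libraries were above all WT libraries in 34 genes (35.8%), where this held for 14.6% of those expressed genes, and below in 5 (5.26%, against 7.64%). Set against the WT library of the same number, pkl was above in all 3 comparisons in 57 genes (60%, against 37% of expressed genes). It was below in all 3 in 11 (11.6%, against 20.4%). The 10 extensins overlapped with WT in pkl when all libraries were compared, with replicate 1 low in both groups, and 8 of them were above WT within each replicate number. None of the 10 passed the test, with or without the replicate block. These shares describe the 95 genes and were not tested as a set. The highest ratio was that of PER8, which was 2.80, 3.37 and 2.34 RPKM in WT and 6.66, 8.17 and 7.31 in pkl, with a log2 fold change of 1.36 ± 0.54 and an adjusted p of 0.25 in limma. AT1G34330, without a product name, was at 218% of WT, AGD11 at 214%, AT3G01730 at 211% and SQP2 at 198%, and none of these passed the test.

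The 5 lowest ratios in pkl belonged to different kinds of genes. AT5G39110, a cupin, was 1.08, 1.67 and 0.54 RPKM in WT, 0.24, 0 and 0.14 in nrpd1, 1.35, 1.87 and 2.70 in nrpe1 and 0, 0.42 and 0.37 in pkl (log2 fold change -1.92 ± 0.67, adjusted p = 0.18 in limma). AT5G38540 was at 28.4%, PCK2 at 39.8%, AT5G17590 at 53.7% and GSTU14 at 61.5% of WT in pkl. For these 5 genes all pkl libraries were below all WT libraries. None of the 10 extensins, 7 peroxidases or 10 wall enzymes had all pkl libraries below all WT libraries. This held for 7.64% of the genes with a WT mean of at least 1 RPKM. In groups of this size 0 is near that share.

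**Figure D5:**
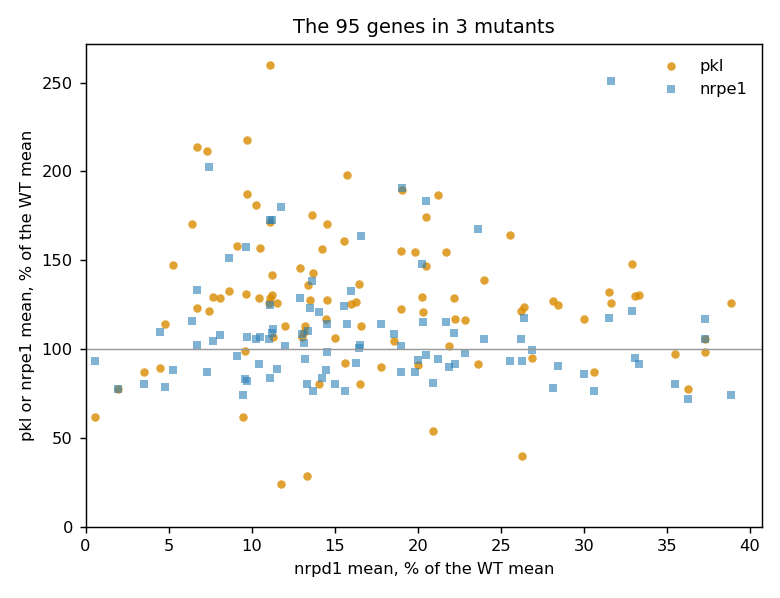
Mean level in pkl (orange circles) and nrpe1 (blue squares) as a percentage of the WT mean (vertical axis) against the nrpd1 mean as a percentage of the WT mean (horizontal axis) for the 95 genes. By the rule no gene lies beyond 40% in nrpd1 or under 70% in nrpe1, and 3 genes lie under 40% in pkl.

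Some levels may be shared with other loci. Of the 95 genes 19 overlap an annotated gene on the other strand and 3 one on the same strand (HA7, AT5G06990 and MIR156d). Among those named above, PER44, PER7, RHS19, EXT10, ADF11, GH9C1, HA7, RAP2.11, CYCP4;2, AT1G52660, CIPK13, EXO70C2, AT1G18420, AT5G38540, AT5G17590, AT1G07500, TBL21 and SYP123 overlap a gene on the other strand. The sources used here do not say whether reads were counted by strand, so reads of such a pair cannot be told apart. Only AT1G05240 had a near-identical copy elsewhere (at least 95% identity over at least 100 bases) over more than 20% of its transcript.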

How the data were processed

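Values were taken from the table of RPKM (reads scaled to gene length and library size) that the authors deposited for 64791 genes and transposable elements in 12 libraries, with no pooling of replicates. Per the submitters' processing notes, reads were processed with CASAVA 1.8, Trim Galore 0.4.0, Subread 1.5.1 and edgeR on TAIR10. The labels name a day of 12 h of light. Because the deposited unit is RPKM, log2(RPKM + 0.1) was tested with limma 3.58.1 (R 4.3.3, trended variance, 4 groups, two-sided, Benjamini-Hochberg) over the 23669 features with at least 0.1 RPKM in at least 3 libraries. Fold changes are on that scale and understate changes of low genes. A call needed an adjusted p under 0.05 and a 2-fold change. The procedure was tested on simulated data.

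Read numbers were recovered from the RPKM steps, to within 0.001 of a whole read, for all 28130 features above 0, and for depth, intervals and voom. A gene whose reads share a common factor may be recovered too low. The replicate numbers paired the libraries: all 18 correlations between same-numbered libraries were over 0.1 (0.149 to 0.600). Replicates are labelled biological, but nothing in the labels says what each culture was.

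The genes, their product groups and the gene lists were chosen with earlier results of these data known. Named were NRPD1, NRPE1 and PKL, the 15 highest WT means, the 8 lowest nrpd1 ratios, the 5 highest and 5 lowest pkl ratios, all genes on a list, called in pkl, in a product family of at least 3 or nearest to a threshold (3 each side), called list genes outside the choice and up to 3 markers per tissue. Other genes named (GSTU28, NSP3, SQP2, the remaining product groups and list genes that missed the call) were chosen after their values were seen. Alternatives were other pseudocounts (0.01 and 1), no filter, median-ratio scaling, the replicate block, the 6 libraries compared, voom and leaving out libraries. Sequences and annotations are RefSeq TAIR10.1, read by locus identifier. Copies were searched with BLAST 2.17.0.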

Additional observations from a re-analysis of the deposited data

How the results depend on the processing

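The number of genes that met the rule was 88 to 113 when 1 library of WT, nrpd1 or nrpe1 was left out, 105 with median-ratio scaling, which kept all 95, and 58 at a WT mean of at least 2 RPKM, by construction. The 3 highest were without an nrpd1 library. Genes called lower in pkl numbered 0 with a pseudocount of 1, 2 with the replicate block, 0 with the 6 libraries alone, and 0 to 1 when a library was left out. Those called higher numbered 1 with a pseudocount of 1, 1 with the replicate block and 2 with the 6 libraries (PER8 and AT1G34330), and 0 when a library was left out. The root hair growth list had 19 genes lower in nrpd1, 12 to 23 without 1 library (12 without WT replicate 2 or 3, and 15 without nrpe1 replicate 2), and 1 with the 6 libraries. The regulation list had 4, with 2 at a pseudocount of 1, 0 with the 6 libraries and 2 to 4 without 1 library (2 without WT replicate 2, WT replicate 3 or nrpd1 replicate 3). The root uptake list had 1, and 0 with the 6 libraries. The 6-library fit has fewer samples to estimate the spread, and the 12-library fit shares a single estimate over all 4 groups. The nrpd1 libraries were the most unequal. For the 85 genes other than extensins, the median of replicate 1 over the mean of replicates 2 and 3 was 0.24 in nrpd1. It was 0.89 in WT, 0.85 in nrpe1 and 0.93 in pkl. The part of either in these counts was not tested. The other root and shoot lists stayed at 0 throughout. No single gene followed here changed direction under any alternative. The replicate block gave 23 for the growth list and 6 for the regulation list, and in the root uptake list it called 3 genes lower in pkl against 1, and HAK5, a potassium transporter, higher in nrpd1. It called CASP4 of the other root list higher in pkl, and it changed no other call of the lists or the 95 genes beyond those given. Median-ratio scaling moved the median log2 fold change of all features in pkl from 0.07 to 0.00 and that of the 95 genes from 0.32 to 0.24. Levels near 1 RPKM rest on few reads, and nrpe1 replicate 2 is the least precise library.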
